A study of Homo sapiens with 15 samples.

Results

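Intestinal stem cell and crypt genes are described here through the open chromatin around 10 of them: the receptor genes LGR4, LGR5 and LGR6, the transcription factor genes ASCL2 and PROX1, the surface and secreted marker genes OLFM4, PROM1 and CD44, and the EPHB receptor genes EPHB2 and EPHB3. The label describes the genes and not the cells, which were pancreatic. The rule names the genes and uses no measured value, but the genes were chosen with earlier results of these data known. The 10 are among 19609 protein-coding genes with at least 1 open region inside them or within 50 kb of either end. The peaks of all libraries that shared at least 1 bp were merged into 222814 regions, and the 221 regions inside the 10 genes or within 50 kb of them are the members. For each region it was recorded in how many libraries of each group a peak had been called.

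ATAC-seq, in which a transposase inserts adapters into accessible DNA, was run on HPAF-II, a human pancreatic adenocarcinoma line with an inactivated RNF43 gene whose growth is known to depend on secreted WNT ligands. Cells received 1 µM Lgk974 for 24 h (4 libraries), DMSO for 24 h (4 libraries), 1 µM Lgk974 for 48 h (3 libraries) or DMSO for 48 h (4 libraries), 7 Lgk974 and 8 DMSO libraries in all. Lgk974 inhibits porcupine, the enzyme that puts on WNT proteins the lipid they need for secretion, and DMSO is its solvent, so the comparison asks what differs in chromatin when WNT secretion is blocked. The labels do not state separate cultures for the libraries of a group, so a p-value here rests on a spread between samples that may be only technical.

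Stem cells at the base of the intestinal crypt are maintained by WNT signalling. LGR4, LGR5 and LGR6 bind R-spondins, and this keeps the ubiquitin ligases RNF43 and ZNRF3 from clearing the WNT receptors at the cell surface. LGR5, ASCL2, EPHB2, EPHB3 and CD44 are known as targets of beta-catenin and TCF factors in the intestine, and the EPHB receptors keep crypt cells in position through contact with ephrin-B ligands.

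A peak list gives a call or no call and no reads, so the sequencing depth behind a call is unknown, and the absence of a call does not show that a region was closed. In bulk libraries, a site open in fewer cells and a site less open in every cell cannot be told apart. The 15 lists held 53610 to 127886 peaks, with a mean of 89924 in Lgk974 libraries and 97965 in DMSO libraries (difference within time -7473, two-sided exact permutation test, p = 0.523). In 3 libraries, called unlike below, the lists differed from the rest. In DMSO 24 h replicate 3, the longest list, 36.6% of the called regions were called in no other library, against 0.619% to 8.59% in the other 14. The shortest lists, with 53610 and 57708 peaks, were those of replicate 3 of Lgk974 at 24 h and replicate 3 of Lgk974 at 48 h. The gene ends of 6 of 6 markers of pancreatic epithelium, such as KRT19 and EPCAM, were called in all 15 libraries. Of 12 markers of fibroblasts, leukocytes and endothelium, 2 ends (COL1A1 and CD3E) were called in all 15 libraries and 4 (LUM, DCN, PECAM1 and VWF) in none. Among the leukocyte markers, the end of LST1 was called in 1 of 7 Lgk974 libraries and in 8 of 8 DMSO libraries. The end of CD79A was called in 6 Lgk974 and 6 DMSO libraries, and that of PTPRC in 1 and 1. The LST1 count is given without a test or a share over all gene ends, and its part in the results below was not tested.

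Where a promoter window was at hand, calling ran from every library to none. RefSeq promoter windows (250 bases before to 50 after an annotated start, GRCh38.p14, the assembly also named hg38) were held for 7 of the 10 genes: LGR4, LGR6, OLFM4, PROM1, EPHB2, EPHB3 and CD44. Of 34961 such windows genome-wide, 12226 (35.0%) were overlapped by a peak in all 15 libraries and 15082 (43.1%) in none. The windows of LGR4, EPHB3 and CD44 were called in 7 of the 7 Lgk974 and 8 of the 8 DMSO libraries. The OLFM4 window was called in none of the 15. Of the 3 LGR6 windows, the one at 202193549 to 202193848 was called in 5 of 7 Lgk974 and all 8 DMSO libraries, the one at 202203462 to 202203761 in 3 Lgk974 libraries and 1 DMSO library, and the one at 202213829 to 202214128 in 6 Lgk974 and 8 DMSO libraries. Of the 4 PROM1 windows, 3 were called in no library and 1 in 1 DMSO library. Both EPHB2 windows, which differ by a shift of 1 base, were called in 1 Lgk974 library and in no DMSO library. A window counts as called only where a library's own peak overlaps it, so its count can be below that of the wider region.

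5 windows are printed 5′ to 3′ to show the letters of promoters called in every library (LGR4, EPHB3, CD44), in none (OLFM4) and in 1 (EPHB2). Capitals mark the motifs searched on both strands: CTTTGAA or CTTTGAT or CTTTGTA or CTTTGTT (TCF/LEF), CAGCTG (E-box), TGACTCA or TGAGTCA (AP-1), CCAAT (bound by NF-Y), TATAAA (a core promoter box) and GGGCGG (GC box). Both AP-1 spellings are the same site read on opposite strands and were counted once.
LGR4, chr11:27472741-27473040, minus strand: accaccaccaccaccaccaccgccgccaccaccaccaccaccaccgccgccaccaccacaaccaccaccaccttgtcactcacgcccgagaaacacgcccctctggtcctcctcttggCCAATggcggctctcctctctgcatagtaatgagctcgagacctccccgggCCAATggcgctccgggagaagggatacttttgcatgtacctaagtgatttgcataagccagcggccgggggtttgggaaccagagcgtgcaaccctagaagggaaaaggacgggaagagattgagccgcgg
EPHB3, chr3:184561535-184561834, plus strand: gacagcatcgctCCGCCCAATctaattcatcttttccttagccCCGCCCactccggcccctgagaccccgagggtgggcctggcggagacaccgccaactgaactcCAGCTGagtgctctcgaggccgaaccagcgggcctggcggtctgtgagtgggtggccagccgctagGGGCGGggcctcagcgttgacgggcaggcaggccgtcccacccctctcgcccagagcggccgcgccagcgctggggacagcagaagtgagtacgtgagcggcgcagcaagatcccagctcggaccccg
CD44, chr11:35138921-35139220, plus strand: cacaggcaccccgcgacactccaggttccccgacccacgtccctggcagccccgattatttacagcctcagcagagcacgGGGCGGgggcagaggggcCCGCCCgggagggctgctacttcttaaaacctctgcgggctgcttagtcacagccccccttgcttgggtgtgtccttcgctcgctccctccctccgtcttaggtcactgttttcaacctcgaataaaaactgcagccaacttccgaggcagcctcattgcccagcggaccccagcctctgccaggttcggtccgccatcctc
OLFM4, chr13:53028563-53028862, plus strand: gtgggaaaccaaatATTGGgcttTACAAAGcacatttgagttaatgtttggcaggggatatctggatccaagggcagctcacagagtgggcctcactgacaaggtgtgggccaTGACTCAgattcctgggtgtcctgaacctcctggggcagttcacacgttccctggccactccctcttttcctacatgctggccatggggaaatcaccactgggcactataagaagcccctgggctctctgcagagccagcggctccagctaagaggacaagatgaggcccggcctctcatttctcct
EPHB2, chr1:22710588-22710887, plus strand: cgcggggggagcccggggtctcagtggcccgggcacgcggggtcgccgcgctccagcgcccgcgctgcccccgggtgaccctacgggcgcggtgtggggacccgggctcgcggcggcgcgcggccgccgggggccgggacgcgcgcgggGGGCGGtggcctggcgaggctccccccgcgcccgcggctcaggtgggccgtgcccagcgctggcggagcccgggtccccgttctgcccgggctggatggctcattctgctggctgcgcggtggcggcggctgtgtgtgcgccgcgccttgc

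The OLFM4 window had the fewest CpG dinucleotides of the 5 windows printed. It held 3 CpG dinucleotides, 1 TCF/LEF motif, 1 AP-1 motif and 1 CCAAT motif. The median number of CpG dinucleotides was 4 over all windows called in no library and 26 over windows called in all 15. Among all windows, 13.8% held a TCF/LEF motif, 4.92% an AP-1 motif, 34.6% a CCAAT motif, 18.0% the E-box, 11.5% TATAAA and 45.0% the GC box. LGR4 held 18 CpG and 2 CCAAT motifs, EPHB3 held 26 CpG, 3 GC boxes, 1 E-box and 1 CCAAT motif that overlaps a GC box, and CD44 held 18 CpG and 2 GC boxes. No TCF/LEF motif in these letters was found in the windows of LGR4, EPHB3, CD44 or EPHB2. The EPHB2 window held 49 CpG and 83.0% G and C, a CpG count at the 98.4 percentile of all windows, although it was called in 1 library. A motif match is a description of letters and says nothing about binding.

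Most of the 221 regions were called either in every library or in very few. In all, 40 regions (18.1%) were called in 15 of 15 libraries, against 15.9% of regions genome-wide. Another 77 (34.8%) were called in 1 library, against 39.5% genome-wide, and 43 of these 77 were called in DMSO 24 h replicate 3. A further 14 regions were called in 2 libraries, 74 in 3 to 12 and 16 in 13 or 14. Of the 40 regions called everywhere, 17 lay inside a member gene, 3 at a member's end, 6 at the end of another protein-coding gene and 14 elsewhere. Regions called in all 15 libraries had a median width of 781 bp, those called in 3 to 12 of 477 bp and those called in 1 of 234 bp.

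**Figure D1:**
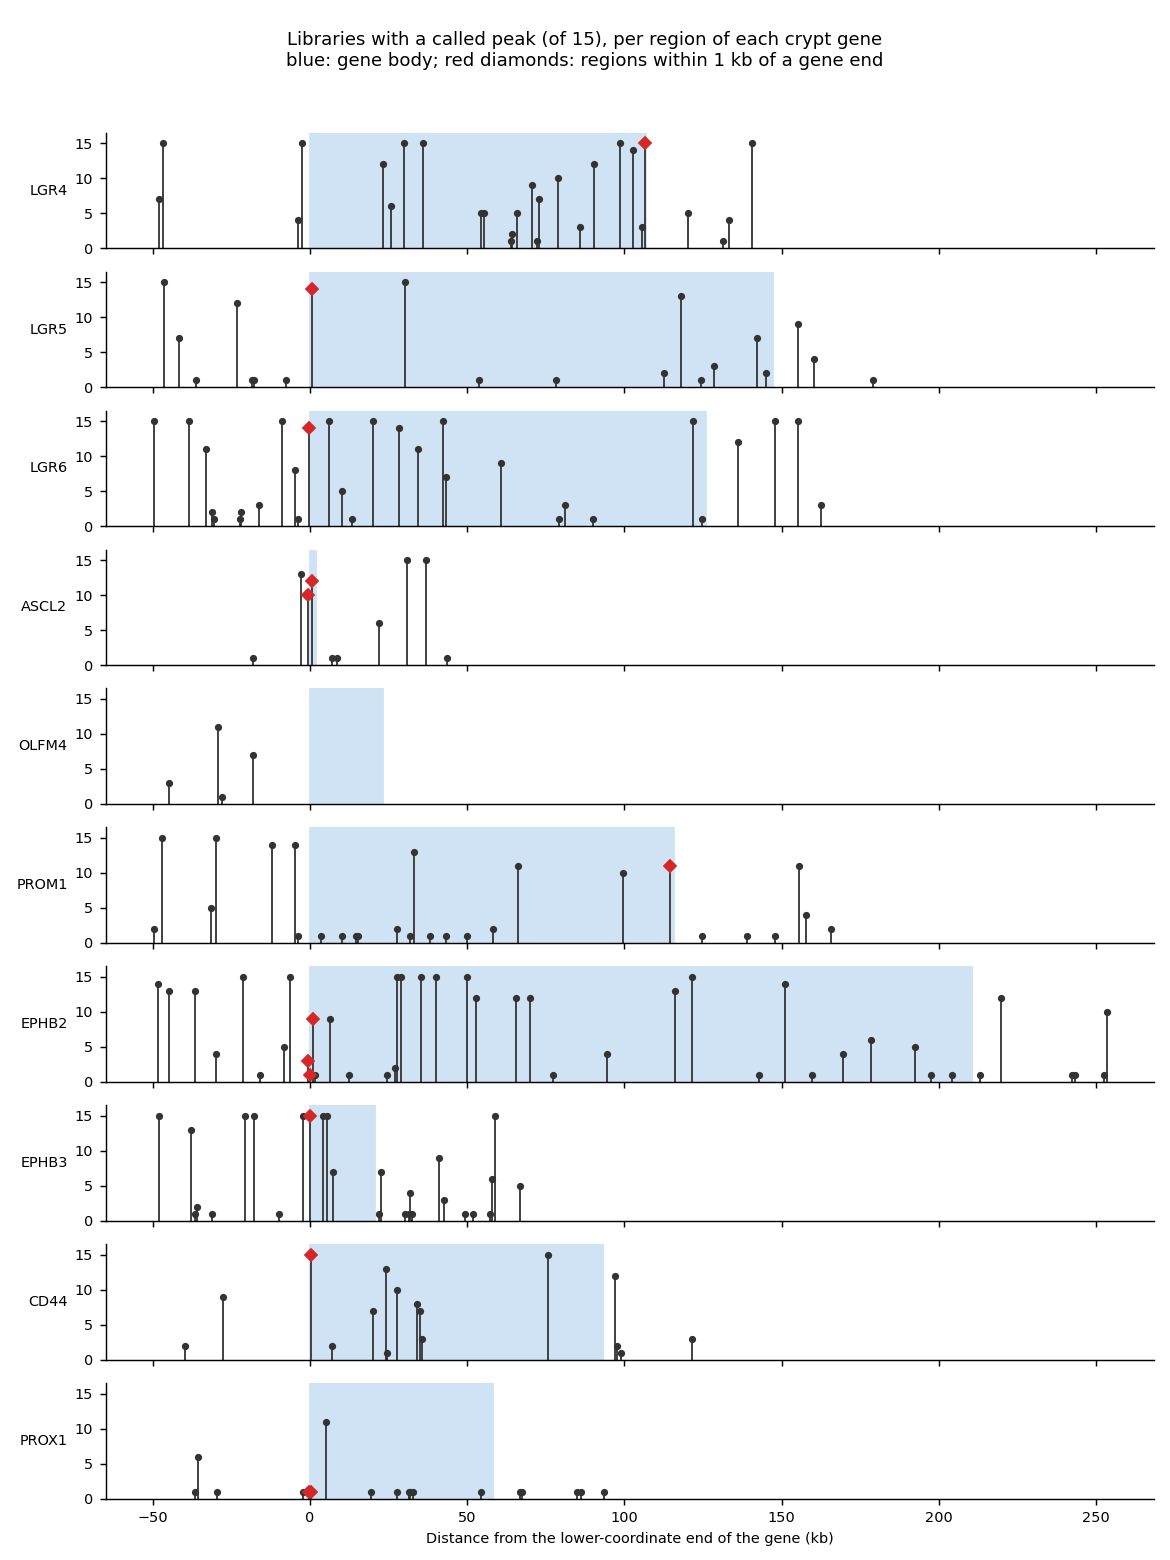
Each stem is 1 region and its height is the number of the 15 libraries with a called peak (y axis, 0 to 15), placed by distance from the lower-coordinate end of its gene in kb (x axis). Blue bands are gene bodies and red diamonds are regions within 1 kb of a gene end: LGR4, EPHB3 and CD44 have an end called in all 15 libraries, OLFM4 has no region in its body, and 16 of the 18 PROX1 regions were called in 1 library.

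The receptor genes for R-spondins were open at a gene end in nearly every library. At LGR4 (chromosome 11, 27365961 to 27472790) the region over its promoter, 27472049 to 27473124, was called in 7 of the 7 Lgk974 and 8 of the 8 DMSO libraries. Within the lists, ordered by the authors' -log10 q from strongest to weakest, its peak stood between the top 5.94% and the top 25.8%. In total LGR4 had 27 regions, 7 of them called in all 15 libraries. The strongest of those 7 by rank, at 27506177 to 27507288, with a median rank in the top 7.9%, lay at the end of LIN7C, 33.4 kb away. At LGR5 (chromosome 12, 71439129 to 71586310), the classical marker of the cycling crypt stem cell, the region at its end, 71438786 to 71440655, was called in 6 of the 7 Lgk974 and 8 of the 8 DMSO libraries. Its peak had a median rank in the top 59.4%, so the LGR5 end was among the weaker peaks of these lists. A region 30.0 kb inside LGR5, 71469141 to 71469847, was called in all 15 libraries with a median rank in the top 21.5%. LGR5 had 20 regions, of which 2 were called in all 15 and 8 in 1.

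LGR6 (chromosome 1, 202193799 to 202319761), an R-spondin receptor known as a stem cell marker in skin, had 30 regions and 9 of them were called in all 15 libraries. The region at its end, 202192768 to 202194286, was called in 6 of the 7 Lgk974 and 8 of the 8 DMSO libraries. The region over the highest-coordinate of its promoter windows, 202213323 to 202214567, was called in 7 of 7 and 8 of 8. The region touching the middle window, 202203726 to 202204189, was called in 4 of the 7 Lgk974 and 1 of the 8 DMSO libraries, a difference that did not pass the exact test (p = 0.112, adjusted p = 0.862). The highest-ranked regions of the locus lay at the ends of neighbouring genes: a region at the end of PPP1R12B, 28.5 kb away, had a median rank in the top 0.672%, and a region at the end of UBE2T, 21.6 kb away, in the top 1.68%.

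Neither transcription factor gene had an end called in every library. ASCL2 (chromosome 11, 2268498 to 2270588) encodes a WNT-responsive factor that sets crypt stem cell fate, and had 10 regions, and 2 of them, at 28.5 kb and 34.7 kb, were called in all 15 libraries. Both of its end regions lay within 1 kb of its lower-coordinate end, and no region lay within 1 kb of the other end. Whether the lower-coordinate end holds its start is not given here. Region 2267624 to 2268382 was called in 3 of 7 Lgk974 libraries (2 of 4 at 24 h, 1 of 3 at 48 h). In DMSO libraries it was called in 7 of 8 (3 of 4 at 24 h, 4 of 4 at 48 h). Region 2268798 to 2269580 was called in 4 of 7 Lgk974 libraries (2 of 4 and 2 of 3) and in all 8 DMSO libraries. Neither passed the exact test over both times (p = 0.0918 and adjusted p = 0.772 for each). The exact p of the first was 0.0102 with only peaks of a -log10 q of at least 5 (difference -0.71 of libraries) and with calls that cover at least 50% of the region (-0.75), and 0.908 with lists of equal length (-0.12). The second had an exact p of 0.602, 0.133 and 0.582 under the same 3 settings. PROX1 (chromosome 1, 213983151 to 214041510) encodes a homeobox factor known as a WNT target in colorectal tumours, and had 18 regions, none called in all 15 libraries and 16 called in 1. Its 2 end regions were each called in DMSO 24 h replicate 3 alone. The most often called PROX1 region, 213987722 to 213988782 inside the gene, was called in 5 of the 7 Lgk974 and 6 of the 8 DMSO libraries.

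OLFM4 (chromosome 13, 53028813 to 53052057), a secreted glycoprotein that marks human crypt stem cells, had no called region inside it or within 1 kb of its ends in any library. Its 4 regions lay 17.7 kb to 44.7 kb away, and the most often called, 52999248 to 52999776, was called in 5 of the 7 Lgk974 and 6 of the 8 DMSO libraries. PROM1 (chromosome 4, 15968228 to 16084023), which encodes the membrane protein CD133, had 27 regions. Its 2 regions called everywhere lay 46.3 kb away and, at the end of FGFBP1, 29.3 kb away. The PROM1 end region, 16082346 to 16083327, was called in 4 of the 7 Lgk974 and 7 of the 8 DMSO libraries (exact p = 0.296, adjusted p = 0.962). CD44 (chromosome 11, 35139171 to 35232402), the hyaluronan receptor, had 16 regions. Its end region, 35138583 to 35140283, and a region 17.1 kb from the far end, 35214653 to 35215288, were called in all 15 libraries, the second with the stronger median rank (top 18.8% against top 45.8%).

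Of the 10 genes, EPHB2 had the most regions and EPHB3 the highest density of them. EPHB2 (chromosome 1, 22710838 to 22921500) had 42 regions. 8 of them had a call in every library, and 6 of those 8 lay inside the gene. The regions at its end differed in how often they were called: region 22710616 to 22711324 in 1 Lgk974 library and no DMSO library, region 22710091 to 22710563 in 1 of 7 and 2 of 8, and region 22711544 to 22712171 in 4 of 7 and 5 of 8. The strongest EPHB2 region by rank, 22689236 to 22690034, lay 20.8 kb outside the gene and had a median rank in the top 1.31%. EPHB3 (chromosome 3, 184561785 to 184582408) had 27 regions, and 8 of them had a call in every library. Its density of 22.4 regions per 100 kb of gene and flanks stood at the 97.3 percentile of all genes, whose median was 11.4. The EPHB3 promoter region, 184561107 to 184562291, had the strongest median rank among the end regions of the 10 genes (top 4.36%), with ranks from the top 1.17% to the top 8.49%.

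**Figure D2:**
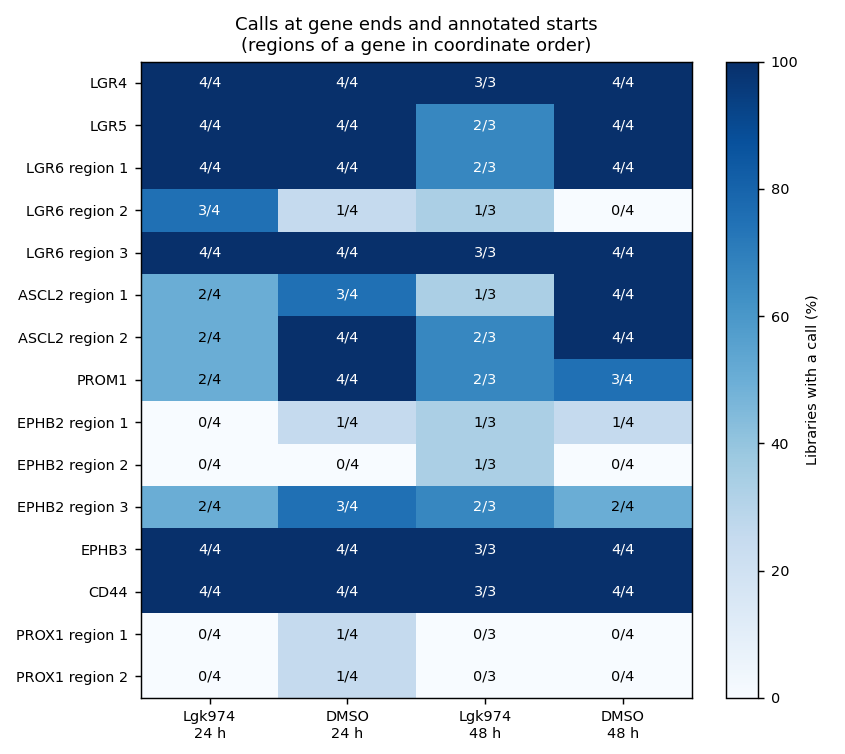
Rows are the regions within 1 kb of a gene end or over an annotated promoter window (those of a gene in coordinate order), and columns are the groups, with the number of libraries called of the number in the group printed and the share in percent as colour. LGR4, EPHB3 and CD44 are dark in every column, PROX1 is pale in every column, and the ASCL2 rows are paler with Lgk974 (2 of 4 at 24 h) than with DMSO (3 or 4 of 4).

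No region of the 10 genes passed the test of Lgk974 against DMSO after adjustment. The 74 regions called in 3 to 12 libraries were tested with a two-sided exact permutation test within time, with Benjamini-Hochberg adjustment over all 60356 such regions. Here 0 of the 74 had an adjusted p under 0.05, as did 0.0% of all tested regions. The smallest adjusted p among members was 0.543, and genome-wide it was 0.418. At an unadjusted p under 0.05, 3 of the 74 were called less often with Lgk974 (4.05%, against a background of 3.08% of all tested regions) and 2 more often (2.7%, against 2.96%). Together they made 5 of 74 (6.76%, against 6.03%), so these shares were near the background. Without the 3 unlike libraries, 2 of 68 tested member regions were lower (against 1.13%) and 3 higher (against 4.93%), and 2 of those 3 lay inside EPHB2. The difference was below 0 for 49 of the 74 members (66.2%, against 53.8% of all tested regions), and its median was -0.125 of libraries against -0.042.

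The 5 regions with an unadjusted p under 0.05 lay at 5 genes. A region 35.8 kb inside LGR4, 27436570 to 27436977, was called in 2 of the 4 Lgk974 and 3 of the 4 DMSO libraries at 24 h, and in 0 of 3 Lgk974 and 4 of 4 DMSO libraries at 48 h (exact p = 0.0224, adjusted p = 0.666). It was the only member region that separated the groups completely at either time. Of all tested regions, 1.08% had a call in all DMSO libraries and none with Lgk974 at 48 h, where an exact test can give no p below 0.0286. The other complete separations held no member, and made 0.656% (Lgk974 only, 48 h), 0.118% (Lgk974 only, 24 h) and 0.321% (DMSO only, 24 h) of tested regions. A region 35.3 kb from PROX1, 213947253 to 213947808, was called in 0 of the 7 Lgk974 and 6 of the 8 DMSO libraries (exact p = 0.0102, adjusted p = 0.543). A region 8.1 kb from EPHB2, 22702280 to 22702743, was called in 0 of the 7 Lgk974 and 5 of the 8 DMSO libraries (exact p = 0.0306, adjusted p = 0.666). The other 2 ran the opposite way. A region 41.6 kb from PROM1, 16125672 to 16126091, was called in 4 of the 7 Lgk974 and 0 of the 8 DMSO libraries (exact p = 0.0306, adjusted p = 0.666). A region 33.9 kb inside CD44, 35173037 to 35173605, was called in 6 of the 7 Lgk974 and 2 of the 8 DMSO libraries (exact p = 0.0396, adjusted p = 0.741).

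The peaks behind these 5 regions ranged widely in strength within their lists. The LGR4 region stood at the top 66.1% and 83.7% of its 2 Lgk974 lists, between the top 41.2% and the top 56.5% of 6 DMSO lists and at the top 95.1% of another DMSO list. The CD44 region stood between the top 24.6% and the top 79.0% of its 6 Lgk974 lists, and at the top 85.8% and 89.9% of its 2 DMSO lists. The PROX1 region stood between the top 60.8% and the top 81.7% of its DMSO lists. The PROM1 region, where called, stood between the top 60.5% and the top 96.5% of its Lgk974 lists, and the EPHB2 region between the top 75.1% and the top 93.5% of its DMSO lists. The unadjusted calls at LGR4, PROM1, CD44 and EPHB2 were lost when single libraries were left out. That was so for 12 of the 15 libraries at LGR4 (exact p up to 0.114), PROM1 (up to 0.143) and CD44 (up to 0.114), and for 8 of them at EPHB2 (up to 0.0857). The stricter threshold ended the call at LGR4 (exact p = 0.0616), PROM1 (0.214) and EPHB2 (0.214), and 50% cover ended it at EPHB2 (0.0714). The PROX1 call held without any 1 library, with exact p up to 0.0286. Without the 3 unlike libraries, the exact p was 0.0333 at LGR4, 0.0167 at PROM1, 0.02 at PROX1, and 0.08 at both EPHB2 and CD44.

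When every list was cut to its 53583 strongest peaks by q, so that all lists were equally long, 5 member regions had an unadjusted p under 0.05, and 1 of them, inside LGR4, was also among the 5 found with all peaks. This gave 90490 regions, of which 98 were members and 28 of those were called in all 15 libraries. Of 35 member regions tested, 5 were called less often with Lgk974 (14.3%, against a background of 6.83%) and 0 more often (against 7.62%), at an unadjusted p under 0.05 in the exact permutation test. None had an adjusted p under 0.05, nor did any region genome-wide (0.0%). The 5 were assigned to LGR4, LGR5 and LGR6, which held 16 of the 35 tested member regions and 41 of the 98, and 1 of the 5 lay inside another gene, PTPN7.

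The region 28.9 kb from the far end of LGR5, 71556902 to 71557422, had the smallest p of the members. With all peaks it was called in 5 of the 7 Lgk974 and 8 of the 8 DMSO libraries. Among the strongest 53583 it was called in 1 of the 7 Lgk974 and 8 of the 8 DMSO libraries (exact p = 0.00204, adjusted p = 0.0839). In the full lists its peak stood at the top 92.6%, 54.3% and 60.6% in Lgk974 24 h replicates 1, 2 and 4, and was not called in replicate 3. The list of Lgk974 24 h replicate 2 held 98930 peaks, so its peak here lay just outside the strongest 53583. The 4 DMSO lists at 24 h had it at the top 27.6%, 37.4%, 15.5% and 49.6%. At 48 h it stood at the top 69.8% and 40.0% in Lgk974 replicates 1 and 2, was not called in replicate 3, and stood at the top 42.7%, 28.7%, 46.3% and 33.1% in the DMSO lists. The lists differ in length, so these ranks describe each list and are not a test. At 24 h the Lgk974 and DMSO ranks did not overlap, and at 48 h they did, through Lgk974 replicate 2. The region was picked by a cut on rank, so a difference in rank follows in part from that choice.

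The LGR4 region at 27436570 was called in 0 of the 7 Lgk974 and 6 of the 8 DMSO libraries with equal lists (exact p = 0.00612, adjusted p = 0.161). A second LGR4 region, 27455938 to 27456656, was called in 2 of 7 and 7 of 8 (exact p = 0.0388), against 5 of 7 and 7 of 8 with all peaks. Region 202160451 to 202160873, inside PTPN7 and at its end, 32.9 kb from LGR6, was called in 0 of the 7 Lgk974 and 5 of the 8 DMSO libraries (exact p = 0.0306). Region 202221676 to 202222873, inside LGR6, was called in 2 of 7 and 7 of 8 (exact p = 0.0306). With all peaks these last 2 regions were called in 4 of 7 and 7 of 8, and in 6 of 7 and 8 of 8. The regions that differed with all peaks at PROX1, EPHB2, PROM1 and CD44 were called in at most 2 Lgk974 libraries and 1 DMSO library among the strongest peaks. With equal lists and without the 3 unlike libraries, 3 of 32 tested member regions were lower (against a background of 4.09%) and 0 higher (against 5.12%), with exact p = 0.0167 for the LGR5 region and 0.0133 for the first LGR4 region. The remaining one was also inside LGR4, at 27388825 to 27389371, called in 0 Lgk974 and 5 DMSO libraries (exact p = 0.0333).

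**Figure D3:**
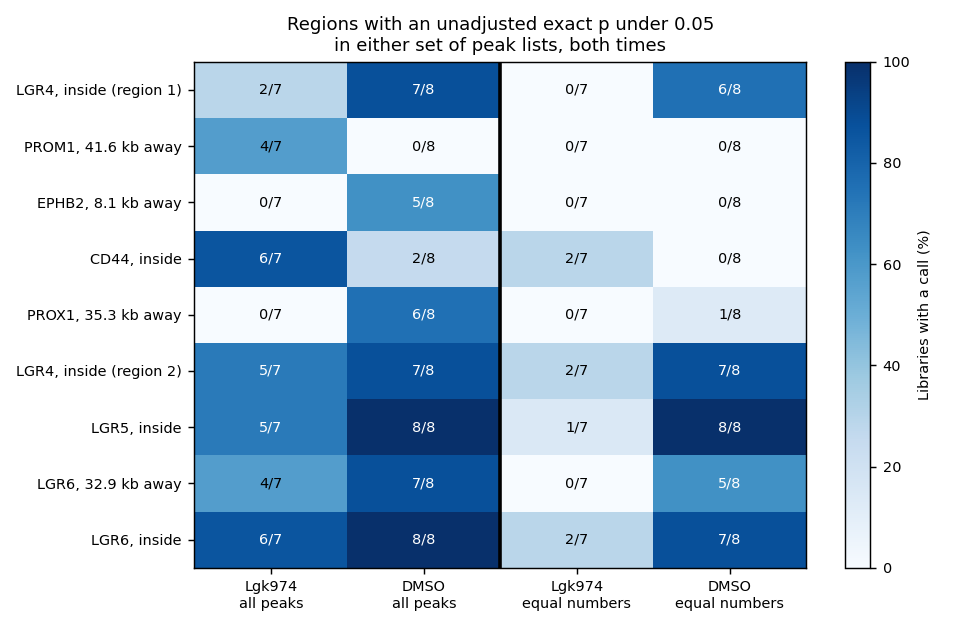
Rows are the 9 member regions with an unadjusted exact p under 0.05 with all peaks or with equal numbers of peaks, and cells give the libraries called of 7 Lgk974 or 8 DMSO libraries, with the share in percent as colour. The first 5 rows were chosen with all peaks and the last 4 with equal numbers, where the LGR5 region reads 1 of 7 with Lgk974 and 8 of 8 with DMSO.

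Taken over all regions of a gene, ASCL2 and PROX1 were called less often with Lgk974 at an unadjusted p under 0.05. That is 2 of 10 genes lower and 0 higher, against a background over 19609 genes of 1.78% lower and 0.0969% higher (1.88% in all). The shares of both genes count regions described above, among them the ASCL2 end regions and the region 35.3 kb from PROX1. They are therefore not separate support for a difference. None of the 10 passed after adjustment (adjusted p = 1.0 for each, exact permutation test), nor did any gene (0.0%). At ASCL2, 5, 4, 4 and 5 of its 10 regions were called in the Lgk974 libraries at 24 h, against 5, 6, 7 and 5 in the DMSO libraries. At 48 h there were 5, 5 and 2 in the Lgk974 libraries, against 5, 6, 5 and 6 in the DMSO libraries. The mean share was 42.9% with Lgk974 and 56.2% with DMSO, a difference within time of -13.8 percentage points (exact p = 0.0147), and 7 of 7 Lgk974 libraries lay below the DMSO mean over both times. The groups touched at 5 regions at both times. Of the 4 ASCL2 regions called in 1 library, 3 were called in DMSO 24 h replicate 3. The call was lost without DMSO 48 h replicate 2, DMSO 48 h replicate 4 or Lgk974 48 h replicate 3 (exact p up to 0.0514). It was also lost with the stricter threshold of a -log10 q of at least 5 (-12.5, exact p = 0.202), with 50% cover (-14.6, exact p = 0.0702) and with regions taken within 100 kb (-9.26, exact p = 0.0947). Leaving out the 3 unlike libraries gave -8.33 percentage points (exact p = 0.14), where 0.243% of all genes were lower and 11.0% higher at an unadjusted p under 0.05, and with equal lists the difference was -2.5 (exact p = 0.891).

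At PROX1, 1, 1, 0 and 2 of 18 regions were called in the Lgk974 libraries at 24 h, against 2, 4, 7 and 4 in the DMSO libraries, and 1, 2 and 1 at 48 h, against 1, 2, 2 and 3. The mean share was 6.35% with Lgk974 and 17.4% with DMSO (difference -10.9, exact p = 0.0114, 7 of 7 Lgk974 libraries below the DMSO mean over both times). The groups touched at 2 regions at 24 h and overlapped at 48 h. Of the 16 PROX1 regions called in 1 library, 7 were called in DMSO 24 h replicate 3. The difference was -12.5 without the 3 unlike libraries (exact p = 0.0733), -9.38 within 10 kb (exact p = 0.0857) and -6.94 with equal lists (exact p = 0.582).

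The other 8 genes did not pass the unadjusted test with all peaks. LGR5 had 6, 7, 5 and 7 of 20 regions called in the Lgk974 libraries at 24 h, against 10, 10, 12 and 6 in the DMSO libraries, and 6, 10 and 2 at 48 h, against 8, 10, 6 and 6. Its mean share was 30.7% with Lgk974 and 42.5% with DMSO (difference -11.9, exact p = 0.0898). LGR4 had 8 to 16 of 27 regions called in the Lgk974 libraries at 24 h, against 11 to 24 in the DMSO libraries, and 9 to 17 at 48 h, against 13 to 16 (difference -8.8, exact p = 0.303). The ranges overlapped at both times for these 2 genes. The differences were -5.28 at LGR6 (exact p = 0.367), -6.35 at EPHB2 (exact p = 0.392), -2.01 at EPHB3 (exact p = 0.778) and -2.31 at PROM1 (exact p = 0.773). CD44 and OLFM4 had values above 0, with 3.39 (exact p = 0.738) and 6.25 (exact p = 0.743). In all, 8 of 10 genes lay below 0, as did 72.3% of all genes, and the median difference was -5.81 percentage points against -2.92 over all genes.

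**Figure D4:**
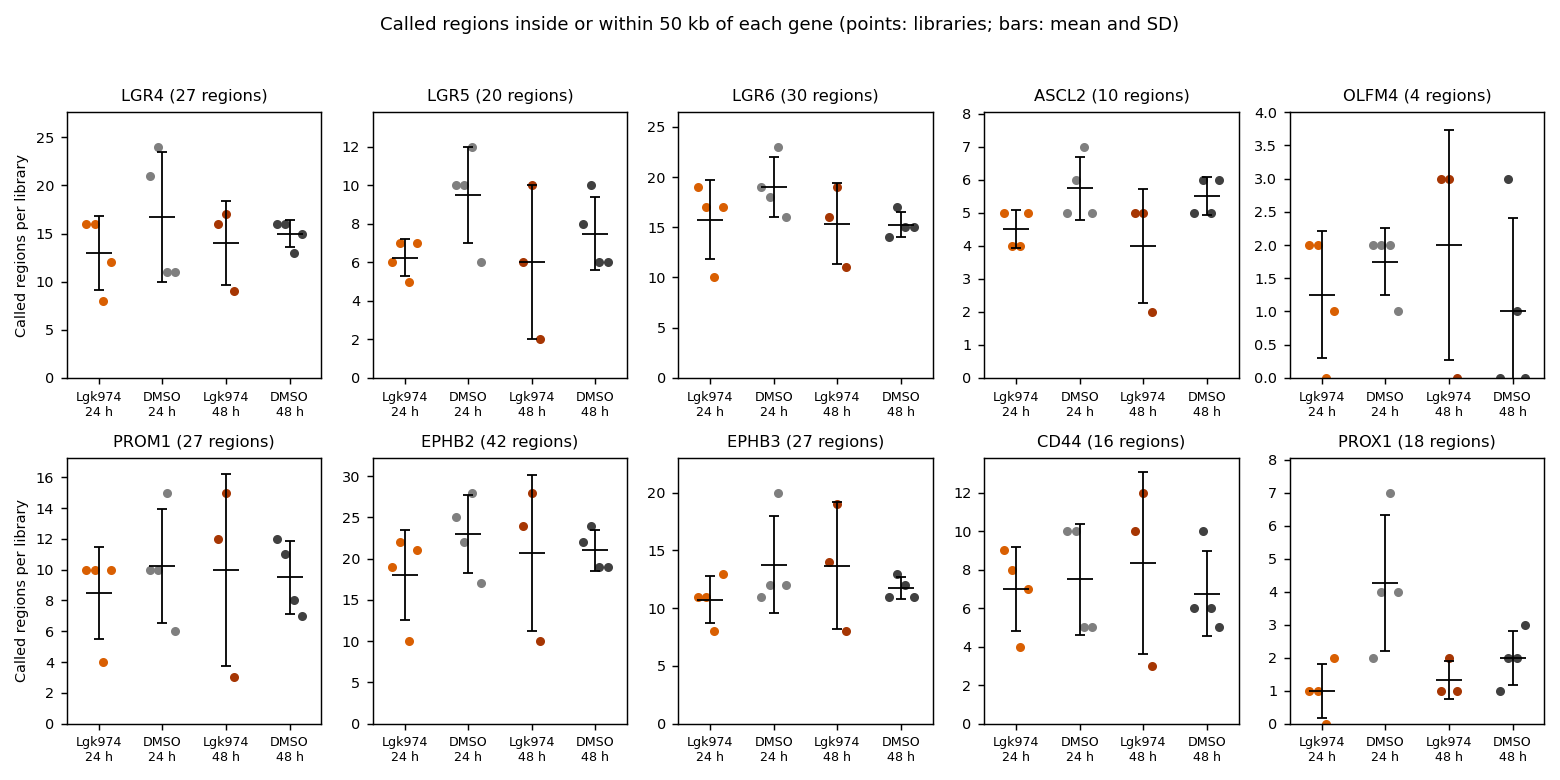
Each point is 1 library and its height the number of called regions of the gene (y axis), by group (x axis), with black bars for the mean and SD of 4, 4, 3 and 4 libraries. Lgk974 libraries sit at or below 5 regions at ASCL2 and at or below 2 at PROX1, while DMSO libraries reach 6 at ASCL2 and 4 at PROX1, apart from DMSO 24 h replicate 3 with 7 at both.

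With lists of the same length, LGR4 and LGR5 had an unadjusted p under 0.05 and LGR6 did not. These shares count the regions named above from the same lists, so they are not separate support for a difference. LGR4 then had 9, 9, 8 and 8 of 14 regions called in the Lgk974 libraries at 24 h, against 11, 10, 8 and 9 in the DMSO libraries. At 48 h it had 9, 8 and 9 in the Lgk974 libraries, against 12, 12, 11 and 11 in the DMSO libraries. The groups did not overlap at that time, where an exact test can give no p below 0.0286. How many of all genes separate in this way was not counted. The mean share was 61.2% ± 3.85 with Lgk974 (SD, n = 7) and 75.0% ± 10.1 with DMSO (SD, n = 8), a difference of -13.7 percentage points (exact p = 0.00776). LGR5 had 3, 3, 5 and 2 of 9 regions called in the Lgk974 libraries at 24 h, against 4 in each DMSO library. At 48 h it had 3, 4 and 2 in the Lgk974 libraries, against 5, 4, 5 and 4 in the DMSO libraries. The mean share was 34.9% ± 11.9 with Lgk974 (SD, n = 7) and 47.2% ± 5.18 with DMSO (SD, n = 8), a difference of -12.5 (exact p = 0.0257). LGR6 had 60.3% ± 9.32 of 18 regions called with Lgk974 (SD, n = 7) and 58.4% ± 6.65 with DMSO (SD, n = 8), a difference of 2.78 on the other side of 0 (exact p = 0.448). LGR4 and LGR5 made 2 of 10 genes lower, with 0 higher, against a background of 4.92% lower and 4.79% higher, and none passed after adjustment. Without the 3 unlike libraries the differences with equal lists were -18.1 at LGR4 (exact p = 0.01) and -16.7 at LGR5 (exact p = 0.0133), with 7.22 at LGR6 (exact p = 0.127), again 2 genes lower and 0 higher, against a background of 3.7% and 4.42%.

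A measure that takes the calling rate of each library out, called the detection excess, was lower with Lgk974 at LGR5 at an unadjusted p under 0.05. It is the mean, over the regions of a gene, of the call minus the share of all regions of the same calling frequency that the library called, in percentage points. The excess uses the same calls and regions as the share, so it is not separate support for a difference. Of all genes, 11.8% had an unadjusted exact p under 0.05 by the excess, in either direction. LGR5 had an excess of -4.23 ± 6.41 with Lgk974 (SD, n = 7) and 3.7 ± 4.62 with DMSO (SD, n = 8), a difference of -8.32 (exact p = 0.0127, adjusted p = 0.273), with 6 of 7 Lgk974 libraries below the DMSO mean. ASCL2 had -4.72 ± 9.07 and 4.13 ± 6.36 (difference -9.31, exact p = 0.0392, adjusted p = 0.39). These 2 genes were lower and 0 higher, against a background of 4.97% lower and 6.84% higher. PROX1 had a difference of -6.37 (exact p = 0.0878) and CD44 of 5.91 (exact p = 0.146).

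The difference between Lgk974 and DMSO was compared between 48 h and 24 h for each gene, with time labels permuted within treatment. No gene passed at an unadjusted p under 0.05 in this exact permutation test, with p from 0.071 to 0.9, against 1.13% of all genes. The smallest p was at PROX1 and the largest at ASCL2.

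Other genes of the crypt and of the same receptors were read from lists of genes that are not members. These lists too were chosen with earlier results of these data known. Among 22 other crypt genes, 2 were called less often with Lgk974 at an unadjusted p under 0.05 and 0 more often, against a background of 1.78% and 0.0969%, with a median difference of -3.15 percentage points against -2.92 over all genes. TNFRSF19, a TNF receptor family member known from LGR5-positive crypt cells of the mouse, averaged 32.7% ± 14.4 of its 21 regions with Lgk974 (SD, n = 7) and 49.4% ± 7.17 with DMSO (SD, n = 8), a difference of -16.1 (exact p = 0.0155). MYB, a transcription factor of proliferating crypt cells, averaged 26.2% ± 13.1 of 6 regions with Lgk974 and 47.9% ± 18.8 with DMSO (difference -22.2, exact p = 0.0327). Both had an adjusted p of 1.0. By the detection excess 3 of the 22 were lower and 0 higher, against 4.97% and 6.84% of all genes: TNFRSF19 (difference -12.9, exact p = 0.000816), MYB (-17.3, exact p = 0.00163) and AXIN2 (-10.1, exact p = 0.0049), a feedback inhibitor and known target of WNT signalling. The end of AXIN2 was called in 0 of the 7 Lgk974 and 7 of the 8 DMSO libraries, and its share of called regions was 42.0% ± 7.83 with Lgk974 (SD, n = 7) and 53.9% ± 11.0 with DMSO (SD, n = 8; difference -11.7, exact p = 0.0571). AXIN2 was named after its values were seen, and the count at its end is given without a test or a share over all gene ends. No gene had an adjusted p under 0.05 by the excess. Among 10 LGR and EPHB partners (R-spondins, other EPHB receptors and B-type ephrins), 0 were lower and 0 higher by the share of regions called, with a median of -4.76, and 1 was lower by the excess (EFNB3, -7.53, exact p = 0.0412). The largest differences among them were -12.7 at EFNB2 (exact p = 0.1) and -9.03 at EFNB3 (exact p = 0.172), both ephrin-B ligands, and -10.0 at RSPO4, an R-spondin (exact p = 0.209). Among 12 genes of Paneth and differentiated intestinal cells, 0 were lower and 0 higher by the share, with a median of 0.278, and 1 was higher by the excess (HES1, 8.95, exact p = 0.0388), where the median was 2.99 against 0.0 over all genes. The largest differences were 25.0 over 2 regions at ATOH1, the secretory lineage factor (exact p = 0.173), -9.13 at REG4, an enteroendocrine and secretory cell marker (exact p = 0.247), and 6.25 at HES1, a Notch target (exact p = 0.133).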

How the data were processed

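ATAC-seq was measured in 15 HPAF-II libraries, grouped by the treatment and time in the sample labels. The deposited files hold 1 peak list for each library, not pooled. Per the submitters' processing notes, the tools were DESeq2, DiffBind, ChIPseeker, MACS2, HOMER, bedtools, SAMtools, Picard, Bowtie2 and Trimmomatic, and the build hg38. What each did, its version and settings, and any shift of reads for the transposase are not given in the sources used. These settings decide which weak peaks enter a list. Each deposited peak has a score, a fold (a ratio over background) and -log10 p and -log10 q values, which are the authors' own and served to describe, rank or filter the peaks of 1 list. A rank of the top x% is the peak's place by -log10 q in its own list. No list held a peak with a -log10 q below 2.06.

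Peaks on chromosomes 1 to 22 and X were merged (1 bp) in Python 3.11.15 with numpy 2.4.6 and pandas 2.3.3; 1138 peaks on other contigs were left out, and 1 damaged line in DMSO 48 h replicate 4 was read as chromosome 1. Gene positions and promoter sequences came from RefSeq tables on GRCh38.p14; the gene table gives no strand, so an end is either end of a gene. Regions called in 3 to 12 libraries, and the share of each gene's regions called, were tested by two-sided exact permutation of treatment within time (2450 assignments, smallest p 0.000408), with Benjamini-Hochberg adjustment over all such regions or all genes, and the test was tried on simulated data. Mean shares are over libraries of a treatment, and differences are averaged over both times. Alternatives were equal numbers of peaks, a stricter threshold (-log10 q of at least 5), 50% cover, summit windows, windows of 10 kb and 100 kb, the detection excess, a replicate block and leaving out libraries; leaving out the 3 unlike libraries (DMSO 24 h replicate 3, Lgk974 24 h replicate 3 and Lgk974 48 h replicate 3), alone or with equal lists, was chosen after seeing the data. Regions named were those at gene ends or promoter windows, those with an unadjusted p under 0.05, and the most often called of each gene; those named from equal lists followed the same threshold and were added after their values were seen. The members and lists were chosen with earlier results of these data known. No read counts were used, so no interval on depth is given.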

Additional observations from a re-analysis of the deposited data

Results flagged for a closer look

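In 3 of 30 groups of 4 libraries, the number of called regions of a gene in 1 library stood apart from the other 3 by Dixon's criterion. Chance meets it in about 1 group in 20 for continuous values, and that rate need not hold for small counts. Where 3 counts are equal, as at PROM1 and OLFM4 below, any other count is flagged. EPHB3 had 20 called regions in DMSO 24 h replicate 3, against 11, 12 and 12 in the other DMSO libraries at 24 h. PROM1 had 4 in Lgk974 24 h replicate 3, against 10 in each of the other Lgk974 libraries at 24 h. OLFM4 had 1 in DMSO 24 h replicate 4, against 2 in each of the others. The first 2 libraries are those with the longest and the shortest list.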

How the results depend on the processing

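The count of adjusted calls among members was 0 under every alternative run, for regions and for genes. At an unadjusted p under 0.05, the count of regions lower with Lgk974 (3) was 5 with equal numbers of peaks and 1 to 3 when 1 library was left out, and the count of regions higher (2) was 0 with equal numbers, 1 with the stricter threshold, 1 within 10 kb, 0 with equal numbers and without the 3 unlike libraries, and 0 to 2 when 1 library was left out. The count of genes lower (2) was 1 with 50% cover, 1 within 10 kb, 1 within 100 kb, 0 without the 3 unlike libraries (background 0.243%, and 11.0% higher) and 1 to 3 when 1 library was left out. The ASCL2 difference lost its call without DMSO 48 h replicates 2 or 4 or Lgk974 48 h replicate 3 (exact p up to 0.0514). LGR5, with no call in the main test, gained one under 4 alternatives and in 2 of the runs that left out 1 library. Without 1 library its difference was -17.8 to -6.88 percentage points (exact p 0.0162 to 0.314). LGR4 gained a call under 2 alternatives and in no run that left out 1 library. The sign turned, with no call, in these cases. With equal numbers, LGR6 was 2.78 and CD44 -0.521 percentage points. With 50% cover, PROM1 was 1.23, its end region 0.21 of libraries, and the EPHB2 region at 22711544 also 0.21. With summit windows the EPHB2 region at 22710091 was 0.08. Within 100 kb OLFM4 was -0.694. The detection excess gave 1.54 at PROM1 and 0.311 at EPHB3. Without the 3 unlike libraries, LGR6 was 4.69, PROM1 13.3, EPHB2 6.57, EPHB3 10.3 (exact p = 0.05) and the EPHB2 region at 22711544 was 0.25; with equal numbers as well, LGR6 was 7.22 and PROM1 2.38. Leaving out 1 library gave -7.5 to 4.17 at PROM1, -8.52 to 3.24 at EPHB3, -2.5 to 11.7 at CD44, -0.25 to 0.04 at the EPHB2 region 22710091 and -0.17 to 0.12 at 22711544. The cause of these changes was not tested.

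With the replicate number as a block, 0 regions were lower, 0 higher and 0 genes lower, where the smallest p that 128 assignments can give is 0.0156 (exact p = 0.125 at ASCL2 and 0.0625 at PROX1). Same-numbered Lgk974 and DMSO libraries correlated at -0.032 to 0.146 over 7 pairs, with 5 over 0.1 (4 of 4 at 24 h, 1 of 3 at 48 h) and 4 correlating best with their own number, so the numbers were not taken to pair the samples. Depth is unknown, and list length limits what can be seen of weak regions.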
